A study of Homo sapiens with 4 samples.

Results

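The MAGE family and PRAME antigens are 10 genes, MAGEA1, MAGEA3, MAGEA4, MAGEA6, MAGEA10, MAGEA12, MAGEB2, MAGEC1, MAGEC2 and PRAME. All probes whose platform gene symbol is one of these names were taken, which gave 22 of the 47321 probes on the bead array, 2 or 3 for each gene, and 10 of 20046 named genes. The cells were of MDA-MB453, an established line from a human breast cancer, grouped by a green fluorescent protein (GFP) marker. What drives GFP is not given in the labels. The GFP-positive group carried the label of cancer stem-like cells and the GFP-negative group that of cells without this property, with 2 arrays in each group and 4 in all. Both groups came from this 1 line, grown in DMEM with serum, and the series text describes pairs of RNAs from different days. It also says that these batches were brought together for the arrays, without saying whether RNA was pooled. The comparison asks how expression differs between these fractions. The genes were chosen with this contrast known, so their differences are given as descriptions without a p-value.

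MAGE genes of type I lie in clusters on the X chromosome and are transcribed in male germ cells. DNA methylation keeps them silent in most other tissues, and tumours often express them again, when their peptides can be shown to T cells on HLA class I molecules. The MAGE proteins share a homology domain that binds RING ubiquitin ligases, and MAGEA3, MAGEA6 and MAGEC2 are known partners of TRIM28. PRAME belongs to a separate family of leucine-rich repeat proteins. It acts as a substrate receptor of a CUL2 ubiquitin ligase and is known as a repressor of retinoic acid receptor signalling.

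Promoter sequence is shown for the members on which the values turn and for 2 that were not detected, because the near-identical copies differ little in it. RefSeq (GRCh38.p14) gave windows of 300 bases, from 250 before to 50 after the transcript start, for 8 of the 10 members. MAGEA1 and MAGEA10 had no entry. Every CpG, the dinucleotide that DNA methylation marks, is in capitals, and sequences run 5′ to 3′ on the gene's strand.
MAGEA3 (chrX:152698544-152698843, plus strand): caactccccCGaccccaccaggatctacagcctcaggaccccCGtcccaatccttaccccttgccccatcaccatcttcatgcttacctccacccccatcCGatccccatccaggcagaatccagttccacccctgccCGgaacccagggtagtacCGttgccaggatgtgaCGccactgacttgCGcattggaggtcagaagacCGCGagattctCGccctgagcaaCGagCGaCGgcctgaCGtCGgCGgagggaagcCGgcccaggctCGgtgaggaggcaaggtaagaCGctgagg
MAGEA12 (chrX:152733612-152733911, plus strand): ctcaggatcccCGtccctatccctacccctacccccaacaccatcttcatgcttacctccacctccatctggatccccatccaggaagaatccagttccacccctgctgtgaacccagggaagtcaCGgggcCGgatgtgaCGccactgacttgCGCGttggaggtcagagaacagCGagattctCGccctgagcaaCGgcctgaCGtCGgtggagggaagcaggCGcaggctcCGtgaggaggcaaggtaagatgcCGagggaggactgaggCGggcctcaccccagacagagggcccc
MAGEB2 (chrX:30215313-30215612, plus strand): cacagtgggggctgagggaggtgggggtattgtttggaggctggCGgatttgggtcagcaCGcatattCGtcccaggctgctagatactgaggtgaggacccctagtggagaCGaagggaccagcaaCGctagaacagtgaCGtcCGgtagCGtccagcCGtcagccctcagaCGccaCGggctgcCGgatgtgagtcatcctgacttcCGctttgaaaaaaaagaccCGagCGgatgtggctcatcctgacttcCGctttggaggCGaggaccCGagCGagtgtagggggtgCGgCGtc
MAGEC2 (chrX:142205241-142205540, minus strand): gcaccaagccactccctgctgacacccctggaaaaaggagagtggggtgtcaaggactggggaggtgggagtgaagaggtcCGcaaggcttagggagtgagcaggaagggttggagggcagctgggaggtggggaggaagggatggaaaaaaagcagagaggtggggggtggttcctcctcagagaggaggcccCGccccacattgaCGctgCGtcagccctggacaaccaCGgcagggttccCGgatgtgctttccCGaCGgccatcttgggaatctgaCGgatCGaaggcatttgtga
PRAME (chr22:22559216-22559515, minus strand): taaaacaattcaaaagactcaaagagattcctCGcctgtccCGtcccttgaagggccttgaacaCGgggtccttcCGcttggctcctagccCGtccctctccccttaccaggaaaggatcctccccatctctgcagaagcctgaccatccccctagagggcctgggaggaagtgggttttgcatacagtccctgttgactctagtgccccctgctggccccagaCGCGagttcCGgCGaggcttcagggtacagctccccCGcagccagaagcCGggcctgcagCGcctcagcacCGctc

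The MAGEA6 window (chrX:152769640-152769939, minus strand) was identical to the MAGEA3 window at all 300 positions, so it is not printed again. The MAGEA2B window was likewise identical to 1 of the 2 MAGEA2 windows, both genes lying between them, and matched the other at 75.4% of aligned positions. Aligned positions include gaps, which also arise where 2 windows begin at different places. That comparison had 42 gaps in each window and no mismatch outside them, so its lower share reflects where the window starts. Against MAGEA3, the closest of the MAGEA12 windows was identical at 69.0% of aligned positions (39 gaps in each). The closest MAGEA2 window was identical to it at 76.5% (28 gaps in each). These shares therefore understate how alike the sequences are where their bases pair. MAGEB2 held 21 CpGs, and MAGEA3 and MAGEA6 held 19 each. The windows of MAGEA4, MAGEA12, MAGEC1 and MAGEC2, which had no tested probe, held 9 to 15, and the 3 PRAME windows held 4 to 13. The median over all 35116 promoter windows was 14, and 39.5% of them held at least as many as MAGEB2. CCGGAA, a sequence found in many ETS factor motifs, was searched on both strands. It occurred in the MAGEA3 and MAGEA6 windows, in the PRAME window above and in none of the other member windows, and 17.2% of all windows hold it. Other forms of ETS site were not counted, such as CCGGAT, which the MAGEB2, MAGEA12 and MAGEC2 windows above hold. TATAAA, the TATA box, was searched in the same way, occurred in no member window and is held by 11.5% of all windows. These counts describe the letters of the windows and not methylation or binding, neither of which was measured.

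Of the 22 probes, 9 were detected on both GFP-positive arrays, where detected means a detection p under 0.05 against the negative controls of the array. Of these 9, 3 were also detected on both GFP-negative arrays and 6 on neither, a pattern of 2.52% of all probes. Another 12 were detected on no array, as were 52.8% of all probes, and the remaining MAGEC1 probe was detected on 1 array of each group. The 9 probes entered the test, which requires detection on both arrays of a group, and they belong to 5 genes: MAGEB2, MAGEA6, MAGEA3, MAGEA1 and PRAME. All 9 had an adjusted p under 0.05 upwards in GFP-positive cells (limma, Benjamini-Hochberg over 18098 probes) and none passed downwards, also at an unadjusted p of 0.05. By the same adjusted threshold 18.8% of all tested probes passed upwards and 21.7% downwards. The choice of the genes used this contrast, and 6 of the 9 probes entered through the GFP-positive arrays alone, so nothing is read from this count. The groups did not overlap, with GFP-positive higher, for all 9 tested probes and for 13 of the 22, against 33.7% of tested and 23.5% of all probes. The same selection bears on these counts, so nothing is read from them either.

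**Figure D1:**
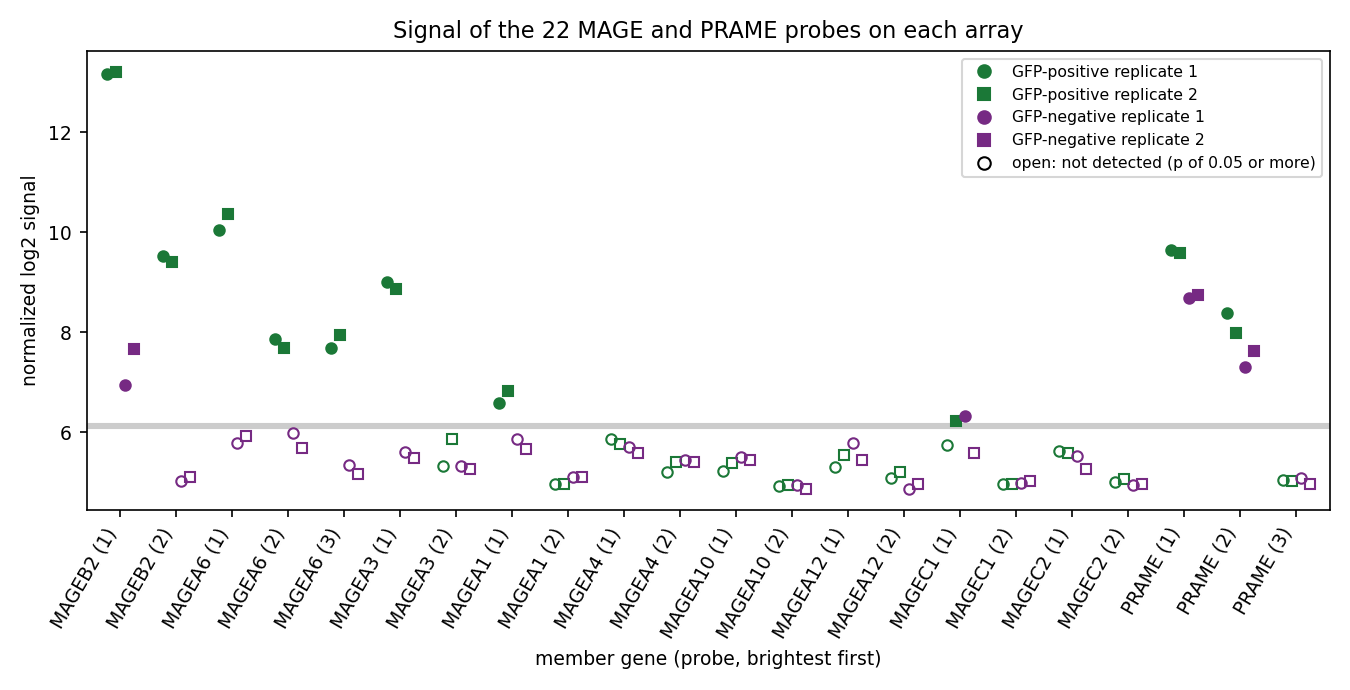
Normalized log2 signal of the 22 probes on each of the 4 arrays, grouped by gene with the brightest probe first. Green marks GFP-positive and purple GFP-negative arrays, circles replicate 1 and squares replicate 2, open symbols are not detected, and the grey band spans the lowest detected log2 value of the arrays (6.09 to 6.17). The tested MAGEA6 and MAGEA3 probes are filled only in green, the first MAGEB2 probe and both tested PRAME probes are filled in both colours, and the second MAGEA3 probe is open.

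MAGEB2, a type I MAGE gene of the short arm of the X chromosome, was detected by 1 of its probes in both groups and differed between them. Its ILMN_1688335 probe gave deposited signals of 8803 and 9149 in GFP-positive and 257 and 366 in GFP-negative cells. The GFP-positive arrays were far brighter, the groups did not overlap, and the probe was still detected on both GFP-negative arrays. On the normalized log2 scale its levels were 13.19 ± 0.04 (SD, n = 2) against 7.30 ± 0.50, a log2 difference of 5.88 ± 0.25 (SE), or 59.1-fold. The other MAGEB2 probe, ILMN_2078430, gave signals of 827 and 812 against 126 and 134 and was not detected on the GFP-negative arrays. Its difference is therefore a bound of at least 10.1-fold. Such a bound sets the mean of the brighter group against, on each array, the lowest log2 value of any detected probe. These bounds hold for levels after the background correction used here.

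MAGEA6 and MAGEA3, near-identical partners of TRIM28 on the long arm of the X chromosome, were detected in GFP-positive cells alone. The brightest of the MAGEA6 probes, ILMN_2372681, gave signals of 1116 and 1409 in GFP-positive and 187 and 197 in GFP-negative cells. The groups did not overlap, and the detection p on the GFP-negative arrays was 0.21 and 0.1. Its log2 level was 10.21 ± 0.23 (SD, n = 2) against 5.86 ± 0.10, at least 17.0-fold. Both other MAGEA6 probes were also detected in GFP-positive cells alone, with smaller bounds. ILMN_1685798 gave signals of 333 and 396 against 158 and 139, at least 3.22-fold, and ILMN_1675651 gave 362 and 356 against 200 and 181, at least 3.14-fold.

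The MAGEA3 probes disagreed. ILMN_1652276 gave signals of 620 and 609 in GFP-positive and 176 and 166 in GFP-negative cells, at least 7.03-fold (log2 level 8.94 ± 0.09 against 5.54 ± 0.08, SD, n = 2). The groups did not overlap and only the GFP-positive arrays were detected. ILMN_2153572 gave signals of 150 and 201 against 156 and 148, with overlapping groups and detection on no array. Probes of either gene can bind transcripts of the other, and the probe sequences were not used here, so the signal cannot be divided between MAGEA3 and MAGEA6.

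MAGEA1, the first gene of the family to be described as a tumour antigen, stood just above background. ILMN_1722830 gave signals of 231 and 266 on the GFP-positive arrays, both detected, and 193 and 179 on the GFP-negative arrays, neither detected. The groups did not overlap, and the log2 levels of 6.71 ± 0.16 against 5.77 ± 0.15 (SD, n = 2) set a bound of at least 1.50-fold. Its log2 difference of 0.94 became 0.82 without GFP-positive replicate 2, and the probe then no longer passed the test. The other MAGEA1 probe, ILMN_2181593, was detected on no array, with signals from 115 to 134.

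PRAME was detected in both groups, with a smaller difference than the MAGEB2 probe that was also detected in both. ILMN_1700031 gave signals of 886 and 903 in GFP-positive and 536 and 621 in GFP-negative cells. The groups did not overlap, and the log2 levels were 9.62 ± 0.03 against 8.71 ± 0.04 (SD, n = 2), a difference of 0.91 ± 0.17 (SE) or 1.88-fold. ILMN_2306033 gave 456 and 404 against 290 and 360, again without overlap, with a log2 difference of 0.72 ± 0.21 (SE) or 1.65-fold. That probe no longer passed without GFP-positive replicate 1 (log2 difference 0.52), without GFP-negative replicate 1 (log2 difference 0.57) or when all 47321 probes were fitted. The third PRAME probe, ILMN_1740744, was detected on no array, with signals from 117 to 133.

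**Figure D2:**
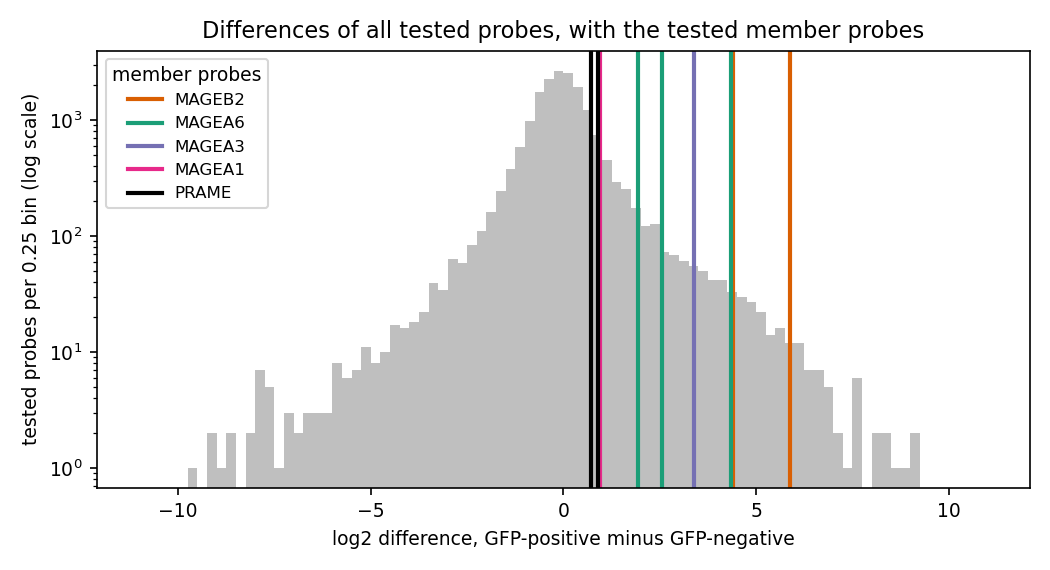
Histogram of the log2 difference, GFP-positive minus GFP-negative, of all 18098 tested probes, with a log scale of probe counts and a vertical line for each of the 9 tested member probes. The lines of MAGEB2, MAGEA6 and MAGEA3 lie in the right tail from 1.94 to 5.88, and those of PRAME and MAGEA1 lie between 0.72 and 0.94.

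No probe of the other 5 genes was detected on both arrays of a group. All had 2 probes, and those of MAGEA4, MAGEA10, MAGEA12 and MAGEC2 were detected on no array, like 1 of the MAGEC1 probes. The other MAGEC1 probe, ILMN_1720041, had signals of 178 and 224 in GFP-positive and 219 and 173 in GFP-negative cells. It was detected on GFP-positive replicate 2 and GFP-negative replicate 1, and the groups overlapped. All 13 untested probes, those of MAGEA1, MAGEA3 and PRAME included, had log2 levels from 4.86 to 6.33 and differences from -0.19 to 0.30. In 4 of the 13 the GFP-positive arrays were higher without overlap, in 4 the GFP-negative arrays, and in 5 the groups overlapped. At this signal a difference was not detectable, which does not show that these genes are silent. Without background correction the differences shrank, for the MAGEA3 probe from 3.39 to 1.88 and for the brightest MAGEA6 probe from 4.35 to 2.78 on the log2 scale. As folds, the tested MAGEB2, MAGEA6 and MAGEA3 probes were then 1.90 to 3.22 times smaller. Over all 22 probes the median log2 difference was 0.21, and over all tested probes of the array it was -0.05.

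MAGEA3 and MAGEA6 bound a block of related genes, and MAGEA1 lies outside it. In the gene order of GRCh38.p14, 9 protein-coding genes and transcribed pseudogenes run from MAGEA3 to MAGEA6, 7 of them with a named probe and 4 with a tested one. These neighbours were looked up after the values were seen. MAGEA2, 1 of whose promoter windows equals that of MAGEA2B, had a probe at log2 levels of 6.84 and 7.09 in GFP-positive and 4.95 and 5.06 in GFP-negative cells. It was detected on both GFP-positive arrays and on no GFP-negative array, at least 1.80-fold higher (limma, adjusted p = 0.000146). The other MAGEA2 probes were each detected on GFP-positive replicate 2 alone and were not tested. CSAG3, a cancer-testis gene that also has near-identical copies, had mean log2 levels of 6.88 against 5.05, at least 1.69-fold higher (limma, adjusted p = 0.000209), and its other probe was detected on no array. The tested MAGEA2 and CSAG3 probes entered the test through the GFP-positive arrays alone. Whether they bind transcripts of near-identical copies was not checked, so their signals cannot be assigned to these genes alone. CSAG1 was detected on GFP-positive replicate 1 alone, and MAGEA2B and MAGEA12 on no array. MAGEA12 lies inside the block, and 1 of its windows was identical to a MAGEA2 window at 89.6% of aligned positions, and its probes were detected on no array.

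Genes beside the block were compared in the same order. Calls of these and the other neighbours below come from the main fit alone. They were not followed with arrays left out or with other processing, which matters most for those near the threshold. None of the 6 genes on the MAGEA10 side had a tested probe. On the other side CETN2, a centrin of the centriole, was detected in both groups with a log2 difference of 0.61 (limma, adjusted p = 0.0316), NSDHL, a cholesterol synthesis enzyme, had 0.44 (adjusted p = 0.168) and ZNF185, a LIM domain gene, fell by 1.04 (adjusted p = 0.00588). Around MAGEB2, its neighbours MAGEB3 and MAGEB4 were detected on no array, and the brightest MAGEB1 probe on GFP-positive replicate 2 alone. IL1RAPL1, on the other side of MAGEB2, had a log2 difference of 0.04 (limma, adjusted p = 0.926). Near MAGEA1, ZNF275 rose by 1.72 on that scale (limma, adjusted p = 0.000195), and the tested gene on the other side of MAGEA1 was the ZNF185 given above. Next to PRAME on chromosome 22, ZNF280B, a zinc finger gene, rose by 0.63 on the log2 scale (adjusted p = 0.0343) and ZNF280A, of the same zinc finger family, was lower by at least 2.53-fold (adjusted p = 5.39e-05).

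**Figure D3:**
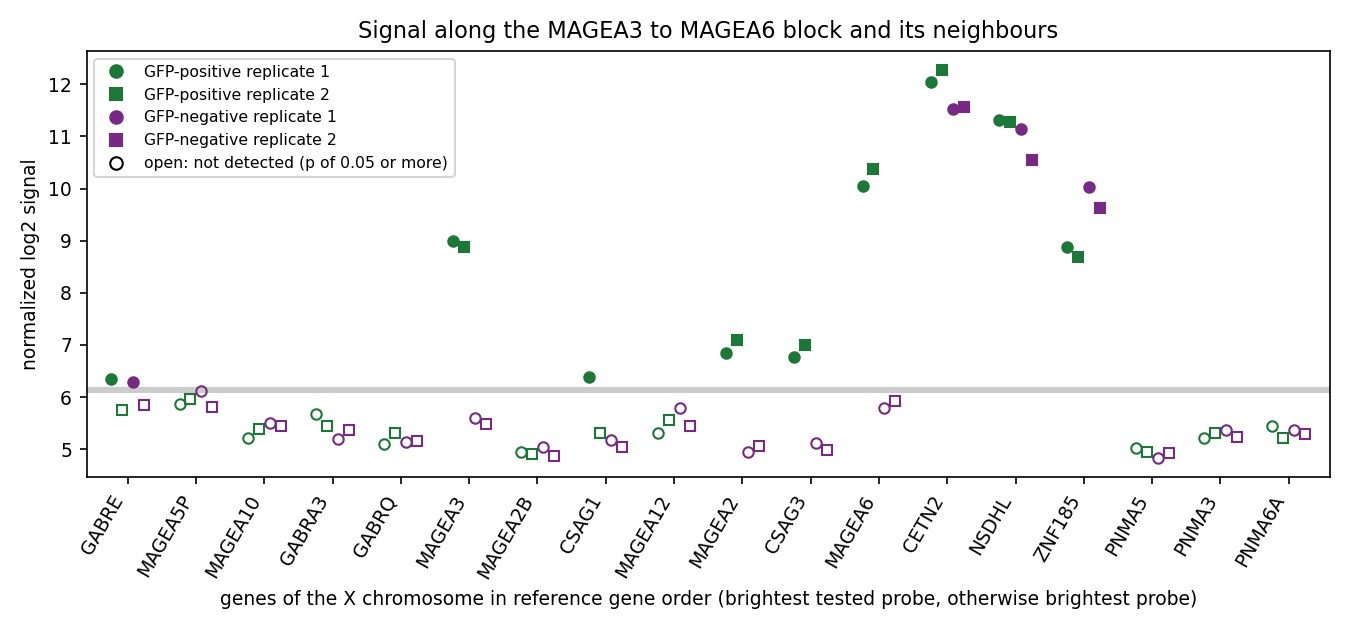
Normalized log2 signal on each array for genes of the X chromosome in reference gene order, from 6 genes before MAGEA3 to 6 after MAGEA6, leaving out genes without a named probe. Symbols and the grey band are as in the plot of the 22 probes. Filled green symbols above undetected purple ones occur at MAGEA3, MAGEA2, CSAG3 and MAGEA6 on both GFP-positive arrays, at CSAG1 on 1 of them, and MAGEA12 between them is open throughout.

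Genes related to the antigens were compared as lists, each gene represented by its brightest tested probe. Over all 10955 named genes with a tested probe, 20.3% were called higher and 22.4% lower in GFP-positive cells. Of 17 other type I MAGE genes, 15 had a probe and MAGEA2 was the only one tested. Of 12 type II MAGE genes, which are expressed in many tissues, 8 were tested, 3 higher, 2 lower and 3 not past the threshold (list median -0.08). MAGED1, an adaptor in neurotrophin receptor signalling, gave log2 levels of 12.65 and 12.72 against 9.16 and 9.44, 10.4-fold higher (limma, adjusted p = 8.79e-06). A further MAGED1 probe differed by 3.85 on the log2 scale (adjusted p = 4.54e-06). MAGED2 fell by 1.17 on the log2 scale (adjusted p = 0.00195). MAGEF1 (log2 difference 0.61, adjusted p = 0.0339), TRO, which encodes the adhesion protein trophinin (0.77, adjusted p = 0.0389), and NSMCE3, a subunit of the SMC5/6 complex (-0.60, adjusted p = 0.0424), passed narrowly. MAGEF1 lost its call without any 1 of the 4 arrays (adjusted p = 0.0659 to 0.236). TRO (adjusted p = 0.101 to 0.145) and NSMCE3 (adjusted p = 0.0995 to 0.227) lost theirs without GFP-positive replicate 1, GFP-positive replicate 2 or GFP-negative replicate 2.

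Other cancer-testis genes did not share one direction. Of 53 listed, 50 had a probe and 10 were tested, 2 higher, 4 lower and 4 not past (list median -0.24). KDM5B, a histone demethylase that is also expressed outside the testis, was 5.26-fold higher (log2 levels 9.39 and 9.58 against 6.90 and 7.28, limma, adjusted p = 8.63e-05), and CSAG3 was the other. Without background correction the KDM5B log2 difference was 1.62 against 2.39, and those of MAGEA2 (1.13), CSAG3 (1.03), CABYR (-2.18) and ACTL8 (-0.91) also shrank. CABYR, a calcium-binding protein of the sperm tail, was at least 6.23-fold lower (5.17 and 4.97 against 8.77 and 8.79, adjusted p = 4.52e-06) and ACTL8, an actin-like protein, at least 1.60-fold lower (adjusted p = 0.000961). SYCP3, of the meiotic synaptonemal complex, was at least 1.62-fold lower (adjusted p = 0.0231), a call lost without GFP-positive replicate 2 (adjusted p = 0.121) or GFP-negative replicate 1 (adjusted p = 0.0903). The other SYCP3 probe, detected on no array and not tested, was higher in GFP-positive cells without overlap (log2 levels 5.93 and 5.93 against 5.33 and 5.20). No probe of CTAG1B, the NY-ESO-1 gene, of the SSX genes or of CTCFL, a testis paralogue of CTCF, entered the test. GAGE probes, of a separate X-linked antigen family, stood on the other side, with 12 of 12 tested lower in GFP-positive cells (limma, median log2 difference -7.66). Of all tested probes, 21.7% were lower. Probes of this family can bind transcripts of several of its members, so these are not 12 separate results.

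Most ubiquitin ligase partners and substrates of MAGE proteins did not pass. Of 14 tested, 2 were higher, 1 lower and 11 not past. TRIM28 itself, bright in both groups, had log2 levels of 12.18 and 12.00 against 11.90 and 11.58 and a difference of 0.35 (limma, adjusted p = 0.189). SMC6 (log2 difference 0.96, adjusted p = 0.00382) and NSMCE4A (0.92, adjusted p = 0.0074), of the SMC5/6 complex, rose, and the ligase RNF8 fell by 0.58 on that scale (adjusted p = 0.0312). NSMCE4A lost its call without GFP-positive replicate 1 (adjusted p = 0.0644), and RNF8 without GFP-positive replicate 1, GFP-positive replicate 2 or GFP-negative replicate 2 (adjusted p = 0.0763 to 0.169).

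Among genes of the PRAME ligase and of retinoic acid receptors, 7 of 14 tested were higher, 2 lower and 5 not past (list median 0.46). The subunits CUL2, RBX1, ELOB and ELOC were among those not past by their brightest probe, although a further ELOB probe fell by 0.94 on the log2 scale (limma, adjusted p = 0.0105). Without GFP-positive replicate 1 the count of higher genes was 4. RARA, the receptor that PRAME is known to repress and named here after its values were seen, gave log2 levels of 10.18 and 10.18 against 9.23 and 8.97 (difference 1.08 ± 0.18 SE, limma, adjusted p = 0.00285). CRABP2, a retinoic acid carrier, was 30.2-fold higher (adjusted p = 7.4e-06), DHRS3, a retinaldehyde reductase, at least 18.4-fold higher (adjusted p = 3.72e-06) and CYP26B1, which breaks down retinoic acid, 6.90-fold higher (adjusted p = 5.26e-05). CYP26A1, of the same function and a known target of the receptors, went the other way, with 6.72 and 6.88 against 10.15 and 10.04 (adjusted p = 7.96e-06). Without background correction the log2 differences were 3.89 for CRABP2 against 4.92, 2.84 for DHRS3 against 4.37 and -2.28 for CYP26A1 against -3.30. VHL, another substrate receptor of the elongin and CUL2 ligase, fell by 1.53 on the log2 scale (adjusted p = 0.00089). Of the other VHL probes, 1 was also lower (-1.38, adjusted p = 0.00109) and 1 did not pass (-0.03, adjusted p = 0.968).

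Of the genes known to silence or activate cancer-testis promoters, 27 were tested, 2 higher, 2 lower and 23 not past (list median -0.09). The count of higher genes was 5 without GFP-negative replicate 2, and the count of lower genes was 0 without GFP-positive replicate 1 and 1 without GFP-positive replicate 2 or GFP-negative replicate 2. DNMT1, which maintains DNA methylation, was bright in both groups (14.21 and 14.12 against 14.36 and 14.52, limma, adjusted p = 0.245), and UHRF1, its cofactor, did not pass by either probe (adjusted p = 0.111 for the brightest). ETS2, an ETS factor, was 4.87-fold higher (9.49 and 9.28 against 7.01 and 7.19, adjusted p = 6.64e-05), and its log2 difference was 1.53 without background correction against 2.28. DNMT3B, a de novo methyltransferase, was 2.23-fold higher by its brightest probe (adjusted p = 0.00189) and 1.90-fold by another (adjusted p = 0.00565), and a further probe did not pass (log2 difference 0.27, adjusted p = 0.264). SETDB1, a histone methyltransferase recruited by TRIM28, fell by 0.77 on the log2 scale (adjusted p = 0.012), a call lost without GFP-positive replicate 1 (adjusted p = 0.095). The methyl-CpG binding MBD1 fell by 0.54 on that scale (adjusted p = 0.0417) and lost its call without any 1 of the 4 arrays (adjusted p = 0.0626 to 0.212).

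Of the genes that would present MAGE or PRAME peptides, 3 of 15 tested were higher, 3 lower and 9 not past, shares close to those of all genes. The count of lower genes was 1 without GFP-positive replicate 1. HLA-B rose 16.1-fold (limma, adjusted p = 2.7e-06) and HLA-F 3.48-fold (adjusted p = 0.00104), while the immunoproteasome subunits PSMB8 (at least 9.98-fold, adjusted p = 8.2e-06) and PSMB9 (at least 1.52-fold, adjusted p = 0.0189) were lower. Without background correction the log2 differences were 2.92 for HLA-B against 4.01 and -2.90 for PSMB8 against -4.53. CANX, a chaperone of HLA class I chains, rose 1.83-fold (adjusted p = 0.0085). PSMB9 lost its call without GFP-positive replicate 1 (adjusted p = 0.118) or GFP-negative replicate 1 (adjusted p = 0.0815), and CANX without GFP-positive replicate 1 (adjusted p = 0.0658). B2M, TAP1, TAPBP and HLA-C did not pass. When all 47321 probes were fitted, TRO, MAGEF1, NSMCE3, SYCP3, RNF8, MBD1 and PSMB9 lost their calls (adjusted p = 0.053 to 0.125). Cyclic loess ended those of NSMCE3, RNF8 and MBD1 (adjusted p = 0.0631 to 0.0989), 75th percentile scaling that of MAGEF1 (adjusted p = 0.052) and no background correction that of TRO (adjusted p = 0.0835).

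**Figure D4:**
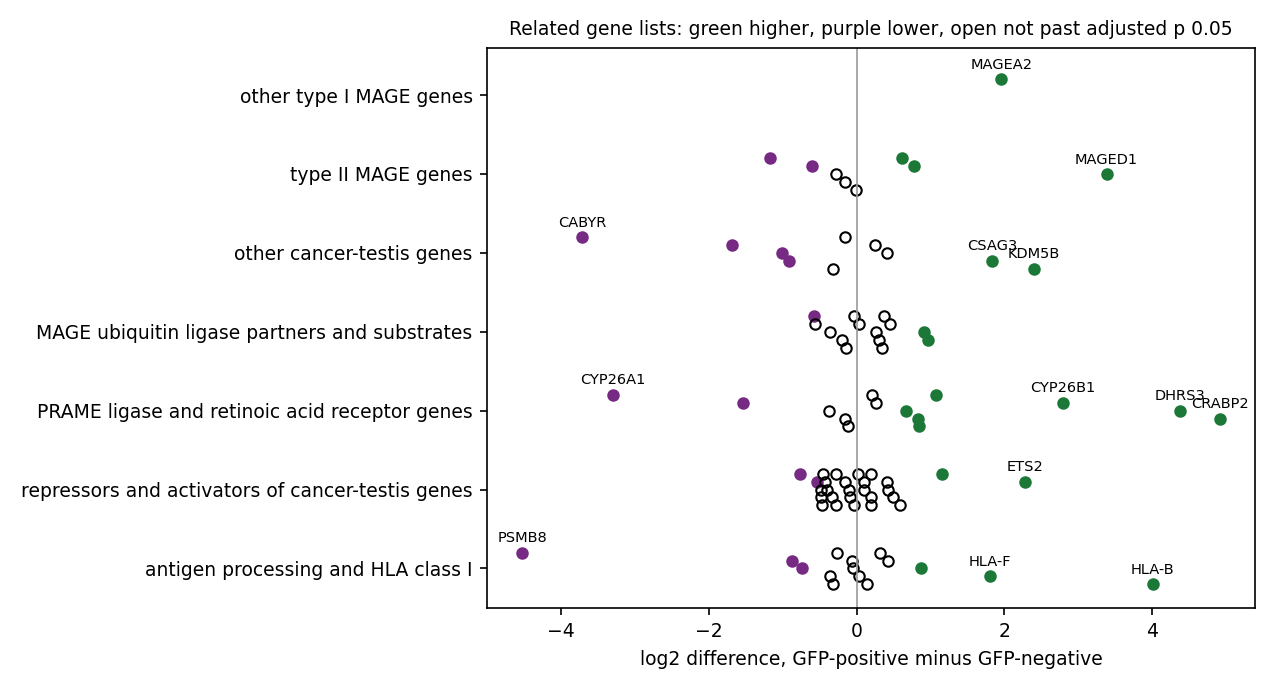
Log2 difference, GFP-positive minus GFP-negative, of each tested gene of the 7 related lists, 1 point per gene by its brightest tested probe. Green points passed an adjusted p of 0.05 upwards, purple points downwards and open points did not pass, and genes beyond 1.7 in either direction are named. MAGED1 (3.38) stands apart from the other type II genes, and most partners and silencing genes lie near 0.

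The genes closest to the members in pattern were found by the root mean square distance between centred log2 values over the 4 arrays, which share the same libraries. For the brightest PRAME probe they were EPHX2 (0.0141), GSE1 (0.0184), MTERF1 (0.0184), YIPF6 (0.0185) and CCDC50 (0.0277). For the brightest MAGEB2 probe they were CDH3, which encodes P-cadherin (0.136), GPX1, a glutathione peroxidase (0.158), GJB2, a connexin (0.168), CALD1, which encodes caldesmon (0.171), and SPARC, a matrix protein (0.173). Their GFP-negative means, except that of GPX1 (7.30), were 5.76 to 6.09, at background, so these distances and their order rest partly on background values.

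Markers of the line and of other cells were set beside these values. Of 12 breast epithelial and MDA-MB453 markers, 11 had a probe and 8 were detected on both arrays of a group, and ESR1, GATA3 and TFAP2B were not. The summed signal of the breast list was 45444 and 45684 in GFP-positive and 20554 and 22361 in GFP-negative cells. Most of that difference came from 2 keratins and does not describe the list as a whole. KRT8 gave signals of 12411 and 12727 against 658 and 417, and KRT19 gave 11595 and 12569 against 1823 and 1425. Of the 8, 4 were higher, 2 lower and 2 not past: KRT8 rose 36.3-fold (limma, adjusted p = 2.12e-05), while the receptor ERBB2 fell by 1.46 on the log2 scale (adjusted p = 0.000504) and FOXA1, a luminal transcription factor, by 0.94 (adjusted p = 0.0126). Of 12 germ cell and testis markers, 11 had a probe and 2 (SYCP3 and TDRD1) were tested. Both were lower in GFP-positive cells by the brightest tested probe, although the undetected SYCP3 probe was higher there. The germ cell genes DDX4, DAZL, SYCP1, PRM1 and PRM2 had no tested probe. The summed signal of the germ cell list was 1831 and 1938 on the GFP-positive and 2120 and 2047 on the GFP-negative arrays. Of 7 fibroblast markers, 3 were tested and lower in GFP-positive cells (summed signal 1293 and 1252 against 1810 and 2280). No endothelial or melanocyte marker was tested, and 2 of 6 leukocyte markers were, neither past the threshold by its brightest probe, although a further CD68 probe rose 4.98-fold (limma, adjusted p = 0.000167). What part these cells have in the members' values was not tested. In these bulk samples, more cells with a transcript and more transcript per cell cannot be told apart.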

How the data were processed

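Biotin-labelled cRNA was made from total RNA of MDA-MB453 cells for Illumina bead arrays, per the labels' protocols. The deposited intensity values are probe signals on a linear scale, not normalized per the file headers, each with a deposited detection p-value that moves in steps of 1 in 770. The submitters' processing notes name GenomeStudio 2009.2 and no source used here states a background subtraction. A deposited table of log2 values equals the log2 signals after quantile normalization.

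From the signals, limma 3.58.1 (R 4.3.3) computed levels by neqc (normexp background inferred from detection p-values, offset 16, quantile, log2), then lmFit and eBayes on the 18098 probes detected (p under 0.05) on every array of 1 group or of both, with Benjamini-Hochberg adjustment. The fit was tested on simulated data with independent normal noise from its own variance model. That checks the computation and cannot show how far these arrays depend on each other. Between 36.8% and 38.5% of probes were detected per array, and 2 arrays a group limit the precision. With 2 against 2 arrays, the smallest 2-sided p of an exact permutation test is 0.333. The labels do not name separate cultures, so a p-value reflects only how these samples vary, perhaps technically.

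Probes were named from the platform annotation (30111 with 1 symbol, 8 with several, 17202 unnamed), and the gene IDs of 30072 matched the RefSeq table of GRCh38.p14, whose symbols were then used. The members and lists were chosen with earlier results of these data known. The text names every member, from each list the called genes of largest difference, at most 5, and genes of like pattern. Other genes named (neighbours, RARA, TRIM28, DNMT1 and further list members) were added after their values were seen. The series text describes pairs isolated on different days, and replicate numbers were taken to mark these pairs. Over tested probes, the deviations from the group mean of arrays with the same number correlated at 0.219. The fit has no block. The alternatives were no background correction, cyclic loess, 75th percentile scaling, other detection filters, the deposited log2 table (the same values as no background correction), the block and leaving out each array.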

Additional observations from a re-analysis of the deposited data

How the results depend on the processing

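The fit of the deposited log2 table and the fit without background correction use the same values and are not separate alternatives. The count of member probes called higher was 9 as reported and 9 without background correction, with cyclic loess, with 75th percentile scaling, with a detection p under 0.01, in the deposited log2 table and with a replicate block for the pairing. It was 8 when all probes were fitted, 8 to 9 with 1 array left out, and 3 with probes detected on all 4 arrays, a filter that leaves 3 member probes to test. None was called lower in any of these fits. Of 102 member values under alternatives, 98 kept direction and call and 4 kept direction only: PRAME ILMN_2306033 in 3 fits and MAGEA1 ILMN_1722830 in 1. Direction could not change where only the filter or the block changed, because the levels stayed the same. With 1 array left out it could not change either, because the groups did not overlap. The 102 values also count the deposited table apart from the fit without background correction. Without background correction, log2 differences shrank, to 4.96 and 2.70 for the MAGEB2 probes, 1.88 for MAGEA3, 2.78, 1.31 and 0.92 for the MAGEA6 probes and 0.41 for MAGEA1.

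Over all probes, 7322 were called, 8471 with the replicate block and 4532 to 6937 with 1 array left out, the lowest without GFP-positive replicate 2. The split was 3394 higher and 3928 lower, 3731 and 3421 under cyclic loess, and 3179 and 4466 after 75th percentile scaling, which moved the median difference to -0.12. Calls among list genes numbered 34, and 22 to 31 with 1 array left out, the lowest without GFP-positive replicate 1. The replicate block changed no call of a tested member or of the called genes of largest difference in each list. Calls among list genes then numbered 35. For other named genes, single calls under the block were not compared. Signals near background limit what the undetected members can show.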
